A study of Mus musculus with 12 samples.

Results

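Whole blood taken 6 h after the last dose of CPI-0209 was compared with whole blood of mice given vehicle, 3 libraries against 3. These are 6 of the 12 libraries of the series, and the groups were taken from the sample labels. CPI-0209, also called tulmimetostat, inhibits EZH2 and EZH1. The treated group received CPI0209 by mouth at 35 mpk (mg per kg) once a day for 11 days and was bled 6 h after the final dose. The other treated groups had the same dosing and were bled at 1 h and at 24 h, with 3 libraries each. The vehicle group was dosed over the same 11 days. The hour at which the vehicle mice were bled is not given in the labels. Mice of all groups were CB17-SCID animals, a strain with a defect in lymphocyte development, and carried tumours grown from HT1376, a cell line of human bladder cancer. The labels do not say whether the 3 samples of a group came from separate cages, days or pooled animals, so p-values measure only the spread between these samples.

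EZH2 and EZH1 are the catalytic subunits of Polycomb repressive complex 2 (PRC2), which methylates histone H3 on lysine 27 at repressed genes. In blood formation EZH2 acts mainly in dividing precursors, and EZH1 persists in cells that no longer divide. Mature red cells have no nucleus, but reticulocytes, the young red cells released from marrow or spleen, still carry messenger RNA for haemoglobin, the membrane skeleton and the proteins that clear organelles. In whole blood RNA a change in any transcript may come from a change in the number of cells that hold it or in the RNA per cell, and bulk libraries cannot tell these apart.

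Counts summed to between 8753317 and 9978215 in the 6 h libraries and between 7653152 and 8530531 in the vehicle libraries. The 100 most abundant genes held 52.97% to 53.7% of the counts at 6 h, against 45.1% to 46.2% in vehicle, and TMM scaling gave factors of 0.766 to 0.812 for 6 h libraries and of 1.03 to 1.12 for vehicle libraries. Globin transcripts made up 0.338% to 0.455% of 6 h counts and 0.109% to 0.215% of vehicle counts. The first principal component, with 27.8% of the variance, placed the 6 h libraries at 30.65 to 54.55 and the vehicle libraries at -28.09 to -8.63. It spread the 24 h libraries from -60.33 to 28.88, wider than either group compared. Reticulocyte, neutrophil, monocyte and platelet markers were all counted, with 0 of the 35, 30, 20 and 30 listed genes at 3 or fewer counts in both groups. The B cell marker Ms4a1 had 0 counts in all 6 libraries, and 7 of 22 B cell markers had 3 or fewer in each group. Of 20 epithelial markers, looked at because of the xenograft, 11 had 3 or fewer counts in each group, and their summed level was 15.6 to 22.5 CPM at 6 h and 19.9 to 22.1 CPM in vehicle.

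Out of 13384 tested genes, 543 were higher at 6 h than in vehicle and 105 lower (edgeR's quasi-likelihood test, Benjamini-Hochberg adjusted p under 0.05). This is 4.84% of genes in either direction, 4.06% higher and 0.785% lower. These shares are the background for counts of this fit against vehicle, and counts under other settings have another background. Over all genes, 1551 were higher and 1077 lower at an unadjusted p under 0.05. DESeq2 called 879 higher and 281 lower, edgeR on only the 6 h and vehicle libraries 1087 and 295, and library totals 344 and 1488. The most significant genes that were higher included Runx1t1, Scd1, Rragd, Asns and Mpst, and the most abundant were red cell genes such as Slc4a1 and Bpgm. The lower genes were fewer and smaller in size, led by Klf11, Atf3, Hgsnat, Il6st and Klf10. Of the higher genes 407 differed by more than 1 on the log2 scale, 98 by more than 2 and 27 by more than 3, and of the lower genes 58, 15 and 5 did. For all 648 genes the 3 values at 6 h lay outside the range of the 3 vehicle values, and over all tested genes 2109 lay wholly above vehicle and 1809 wholly below. The share called higher rose with abundance: 20.6% of genes with a mean log2 CPM over 8 were higher, against 0.888% of those between 0 and 2. The share called lower was 0.619% and 0.458% in the same classes.

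**Figure D1:**
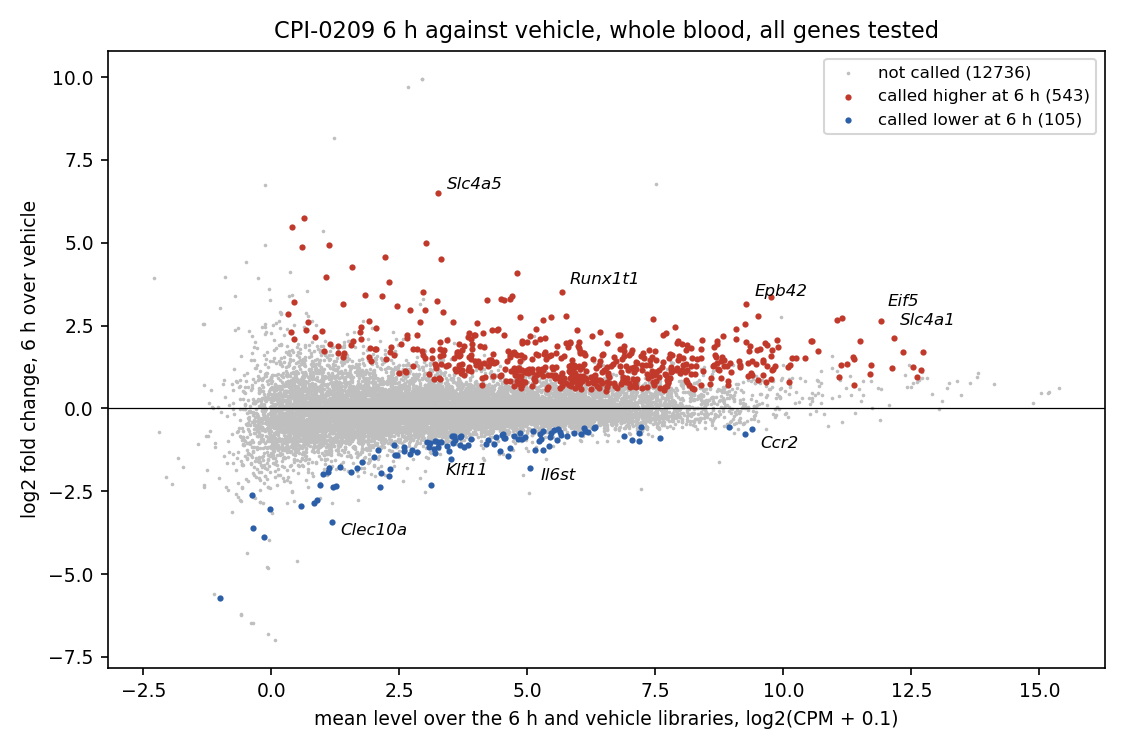
All 13384 tested genes by mean level (log2 CPM, horizontal) and log2 fold change of 6 h over vehicle (vertical), with the 543 genes called higher and the 105 called lower in colour. Higher calls concentrate among abundant genes and reach larger sizes than lower calls.

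The direction of the calls depended on the scaling of the libraries. With library totals in place of TMM, 344 genes were higher and 1488 lower, and the median log2 fold change of all genes was -0.50, against -0.04 with TMM. With DESeq2 size factors 549 were higher and 103 lower. Leaving out single libraries moved the count of 648. It became 299, 358 and 329 when 6 h replicate 1, 2 or 3 was dropped, and 250, 239 and 355 when vehicle replicate 1, 2 or 3 was dropped. It became 1205 and 1266 when 24 h replicate 1 or 3 was dropped. Without any 1 of the 12 libraries, 187 of the calls (175 higher and 12 lower) were kept each time. A fit with the mean log2 CPM of 35 reticulocyte genes as a covariate called 32 genes (15 higher and 17 lower), of which 12 were among the 648, including Asns, Calcoco1, Car8, Mapre3, Mpst, Pdzk1ip1, Rph3al, Rragd, Runx1t1, Scd1 and Slc4a5. That mean was 8.73 to 8.90 in the 6 h libraries and 7.35 to 7.65 in the vehicle libraries, so the covariate and the treatment largely cannot be told apart.

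**Figure D2:**
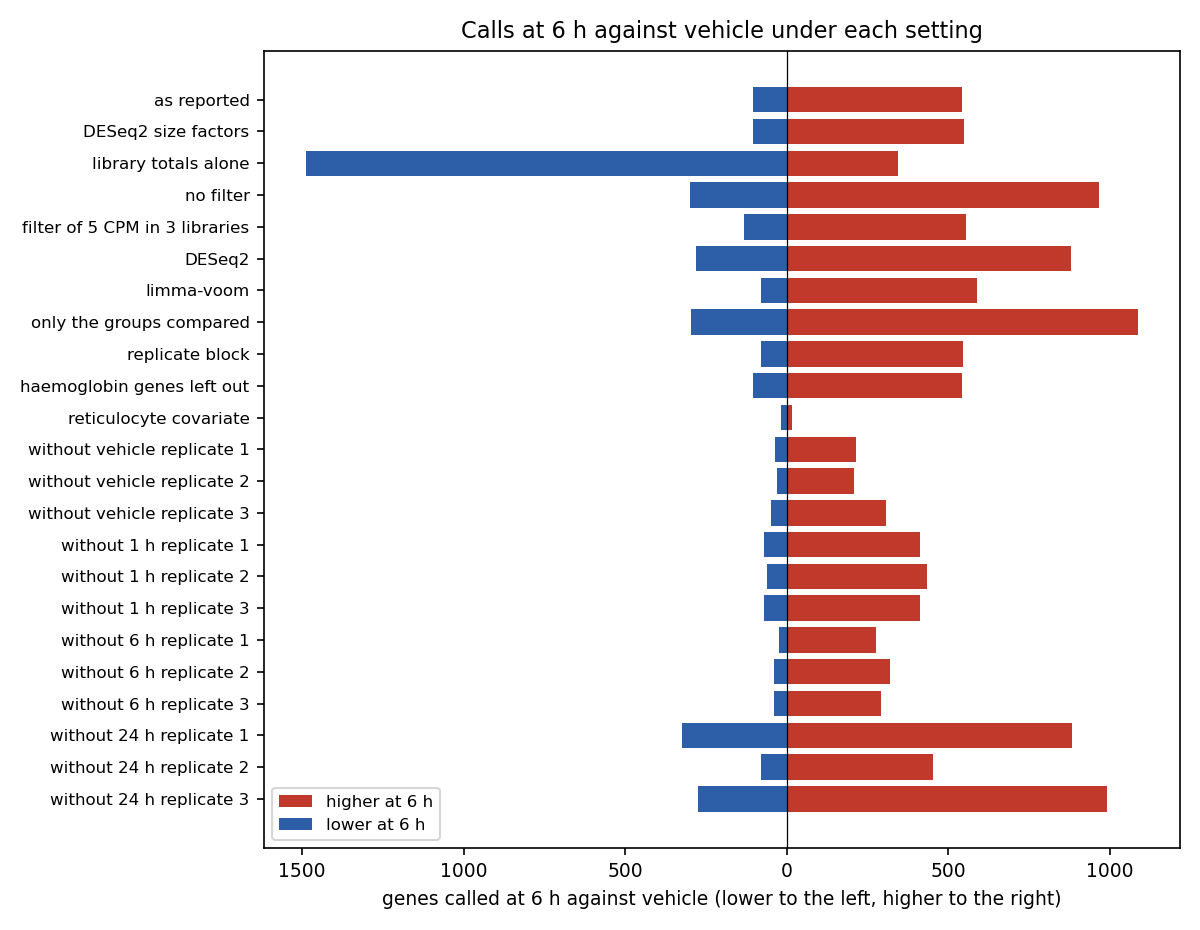
Number of genes called higher and lower at 6 h against vehicle under each processing setting and with each library left out. Counts run from 32 with the reticulocyte covariate to 1832 with library totals alone. Lower calls outnumber higher ones with library totals (1488 against 344) and with the covariate (17 against 15).

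The genes with the smallest p among the higher ones were not mainly red cell structural genes. Runx1t1 (ENSMUSG00000006586, GRCm38 chromosome 4, 13743436 to 13893649), a corepressor that recruits histone deacetylases, had 81.7, 91.95 and 106 CPM in the 6 h libraries, against 8.25, 9.35 and 6.74 CPM in the vehicle libraries. Every 6 h library was several times above every vehicle library, and the log2 fold change was 3.52 (SE 0.25, adjusted p = 1.4e-05). Mapre3, which binds growing microtubule ends, had 38.7, 35.6 and 83.04 CPM at 6 h and 2.79, 2.79 and 3.69 CPM in vehicle, a log2 fold change of 4.08 (SE 0.35, adjusted p = 6.3e-05), with 6 h replicate 3 above the others. Rragd, a Rag GTPase that signals amino acid supply to mTORC1, had 33.7, 41.8 and 46.4 CPM at 6 h and 2.56, 5.05 and 4.71 CPM in vehicle (log2 fold change 3.30, SE 0.29, adjusted p = 6.3e-05). Rph3al, an effector of Rab GTPases in vesicle release, had 30.8, 51.5 and 59.5 CPM at 6 h and 4.07, 3.76 and 5.60 CPM in vehicle (log2 fold change 3.40, SE 0.33, adjusted p = 8.7e-05). Slc4a5, a sodium bicarbonate cotransporter, was close to absent in vehicle: 12.1, 17.1 and 27.1 CPM at 6 h stood against 0, 0.537 and 0 CPM in vehicle, where it had 5 counts in all. The ratio of its CPM was 98.2 (95% exact binomial interval 41.8 to 304.1, counting error only), and the test gave an adjusted p of 8.7e-05.

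**Figure D3:**
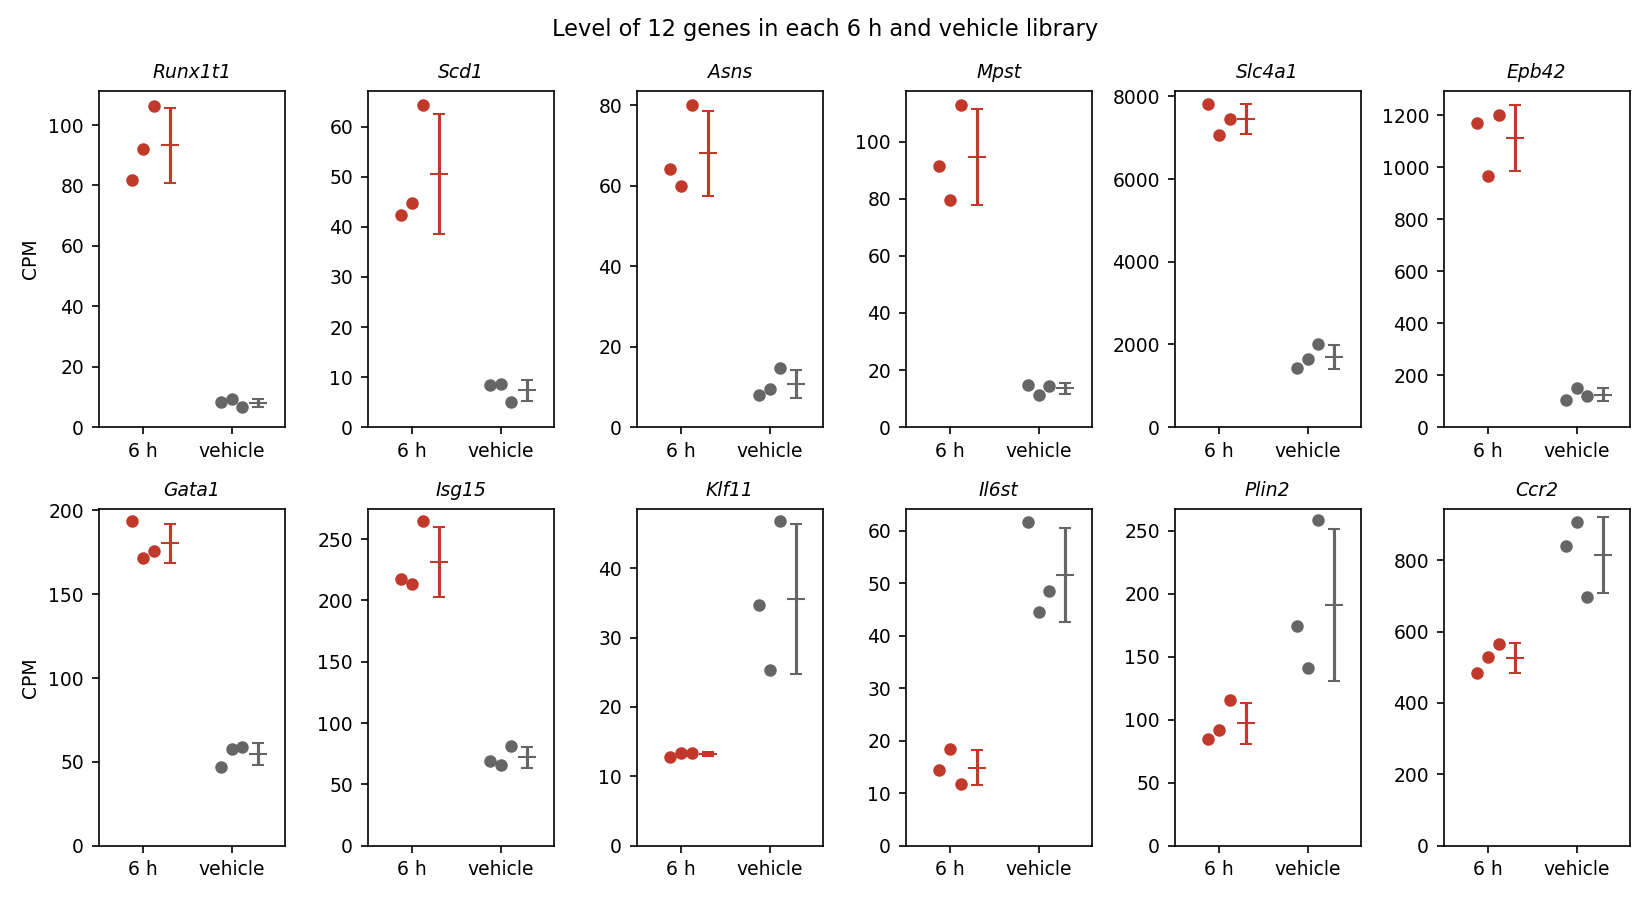
CPM of 12 genes in each library, with the 6 h group left and the vehicle group right in each panel, and bars for the mean and SD of 3 libraries. Klf11, Il6st, Plin2 and Ccr2 are lower at 6 h and the other 8 genes are higher. The 12 genes were picked from the 648 called genes, in all of which the 2 groups do not overlap.

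Enzymes and membrane proteins made up the rest of the 12 higher genes with the smallest p. Scd1, the desaturase that makes oleate from stearate, had 42.4, 44.8 and 64.3 CPM at 6 h and 8.48, 8.60 and 4.96 CPM in vehicle, a log2 fold change of 2.77 (SE 0.25, adjusted p = 6.3e-05). Mpst, a mitochondrial and cytosolic sulfurtransferase that produces hydrogen sulfide, had 91.5, 79.5 and 113 CPM at 6 h and 14.8, 11.4 and 14.5 CPM in vehicle (log2 fold change 2.80, SE 0.28, adjusted p = 0.00012). Cbr1, which reduces carbonyl compounds, had 24.04, 18.7 and 17.2 CPM at 6 h and 4.18, 2.26 and 3.31 CPM in vehicle (log2 fold change 2.62, SE 0.28, adjusted p = 0.00018). All values of these enzymes were separated between the groups. Pdzk1ip1, a small membrane protein also expressed in blood-forming cells, had 80.2, 87.3 and 93.5 CPM at 6 h and 25.6, 21.2 and 24.9 CPM in vehicle (log2 fold change 1.86, SE 0.17, adjusted p = 6.9e-05). Calcoco1, a receptor for selective autophagy of the endoplasmic reticulum, had 53.3, 47.4 and 62.99 CPM at 6 h and 12.2, 12.9 and 10.7 CPM in vehicle (log2 fold change 2.19, SE 0.21, adjusted p = 8.7e-05). Ifi27, an interferon-inducible membrane protein, had 61.5, 55.2 and 81.4 CPM at 6 h and 13.2, 15.9 and 16.2 CPM in vehicle (log2 fold change 2.13, SE 0.21, adjusted p = 0.00012). The 12 genes (these, Asns below, and the 5 above) kept their calls without each of the 12 libraries, and all but Ifi27 and Cbr1 also kept them with the reticulocyte covariate.

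The largest gains in CPM were red cell and housekeeping transcripts of very high level. Eif5, a translation initiation factor that triggers GTP hydrolysis on the small ribosomal subunit, had 6369, 6531 and 7053 CPM at 6 h, against 898, 1142 and 1150.0 CPM in vehicle (log2 fold change 2.65, SE 0.39, adjusted p = 0.0015). Gpx1, the main peroxidase of red cells that uses glutathione, had 7899, 7811 and 7982 CPM at 6 h and 1898, 3019 and 2429 CPM in vehicle (log2 fold change 1.69, SE 0.35, adjusted p = 0.014). Slc4a1, the anion exchanger of the red cell membrane, is described with its group below. Bpgm, which makes the bisphosphoglycerate that tunes oxygen release, had 8704, 8559 and 7567 CPM at 6 h and 3422, 3331 and 3776 CPM in vehicle (log2 fold change 1.24, SE 0.32, adjusted p = 0.04). The receptor Adipor1 had 9526, 8742 and 9127 CPM at 6 h and 3616, 4145 and 4549.9 CPM in vehicle (log2 fold change 1.15, SE 0.31, adjusted p = 0.0497), and Gda, guanine deaminase, had 8481, 8388 and 7600.4 CPM at 6 h and 3993, 3949 and 4801 CPM in vehicle (log2 fold change 0.94, SE 0.25, adjusted p = 0.0456). Bpgm, Adipor1 and Gda each lost their call in 10 of the 12 fits that left out 1 library, and Adipor1 also with DESeq2 size factors.

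Genes of the red cell membrane were among the higher calls. Of 21 tested genes of the red cell membrane and its skeleton, 15 were higher and 0 lower, with a median log2 fold change of 1.45 beside -0.04 for all genes, and 13 were higher with library totals alone. Epb42, the membrane skeleton protein that ties the anion exchanger to ankyrin, had 1169, 966 and 1199 CPM at 6 h, against 103, 152 and 122 CPM in vehicle (log2 fold change 3.15, SE 0.39, adjusted p = 0.00055). Slc4a1 itself had 7815, 7073 and 7466 CPM at 6 h and 1432, 1645 and 2013 CPM in vehicle (log2 fold change 2.13, SE 0.33, adjusted p = 0.0021), and Ank1, the ankyrin that links it to spectrin, had 453, 479.7 and 377 CPM at 6 h and 107, 107 and 135 CPM in vehicle (log2 fold change 1.91, SE 0.26, adjusted p = 0.0012). In each of the 3 genes the lowest 6 h library was above the highest vehicle library by more than the range of either group. Among the others that passed, as log2 fold changes, were the spectrin gene Sptb (1.51), the adducins Add2 (2.38) and Add1 (0.77), tropomodulin Tmod1 (2.30), tropomyosin Tpm1 (1.98), the scaffold Mpp1 (1.97), Kel (1.80), Tmcc2 (1.45), Stom (0.69) and Dmtn (1.26). Epb41 (0.91), Rhd (1.38), Gypc (0.70), Xk (0.72), Rhag (0.67) and Tpm3 (-0.15) did not pass. The count of called members was between 9 and 19 when 1 library was left out and 0 with the reticulocyte covariate, which shares members with the list.

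The promoter of Epb42 is shown because it had the smallest p in this list. It is the RefSeq window of GRCm38.p6 from 250 bases before to 50 after the transcript start, chr2:121036828-121037127 on the minus strand, printed 5′ to 3′ along the gene. Capitals mark the GATA motif, searched as AGATAA on both strands. The motif is bound by GATA1, the master regulator of red cell genes, and here lies on the opposite strand with its first printed base 226 bases before the start (position -226).
Epb42: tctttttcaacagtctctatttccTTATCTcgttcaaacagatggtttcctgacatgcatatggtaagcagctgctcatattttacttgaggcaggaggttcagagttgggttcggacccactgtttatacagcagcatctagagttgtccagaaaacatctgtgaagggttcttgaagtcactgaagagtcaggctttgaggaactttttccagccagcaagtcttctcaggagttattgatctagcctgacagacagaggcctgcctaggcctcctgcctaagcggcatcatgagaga
Of 13384 tested genes 9489 had such a window, and 8.25% of these windows held AGATAA. Among the called membrane skeleton genes it was in 4 of the 10 with a window. A match describes letters in this window and was not tested as a binding site.

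**Figure D4:**
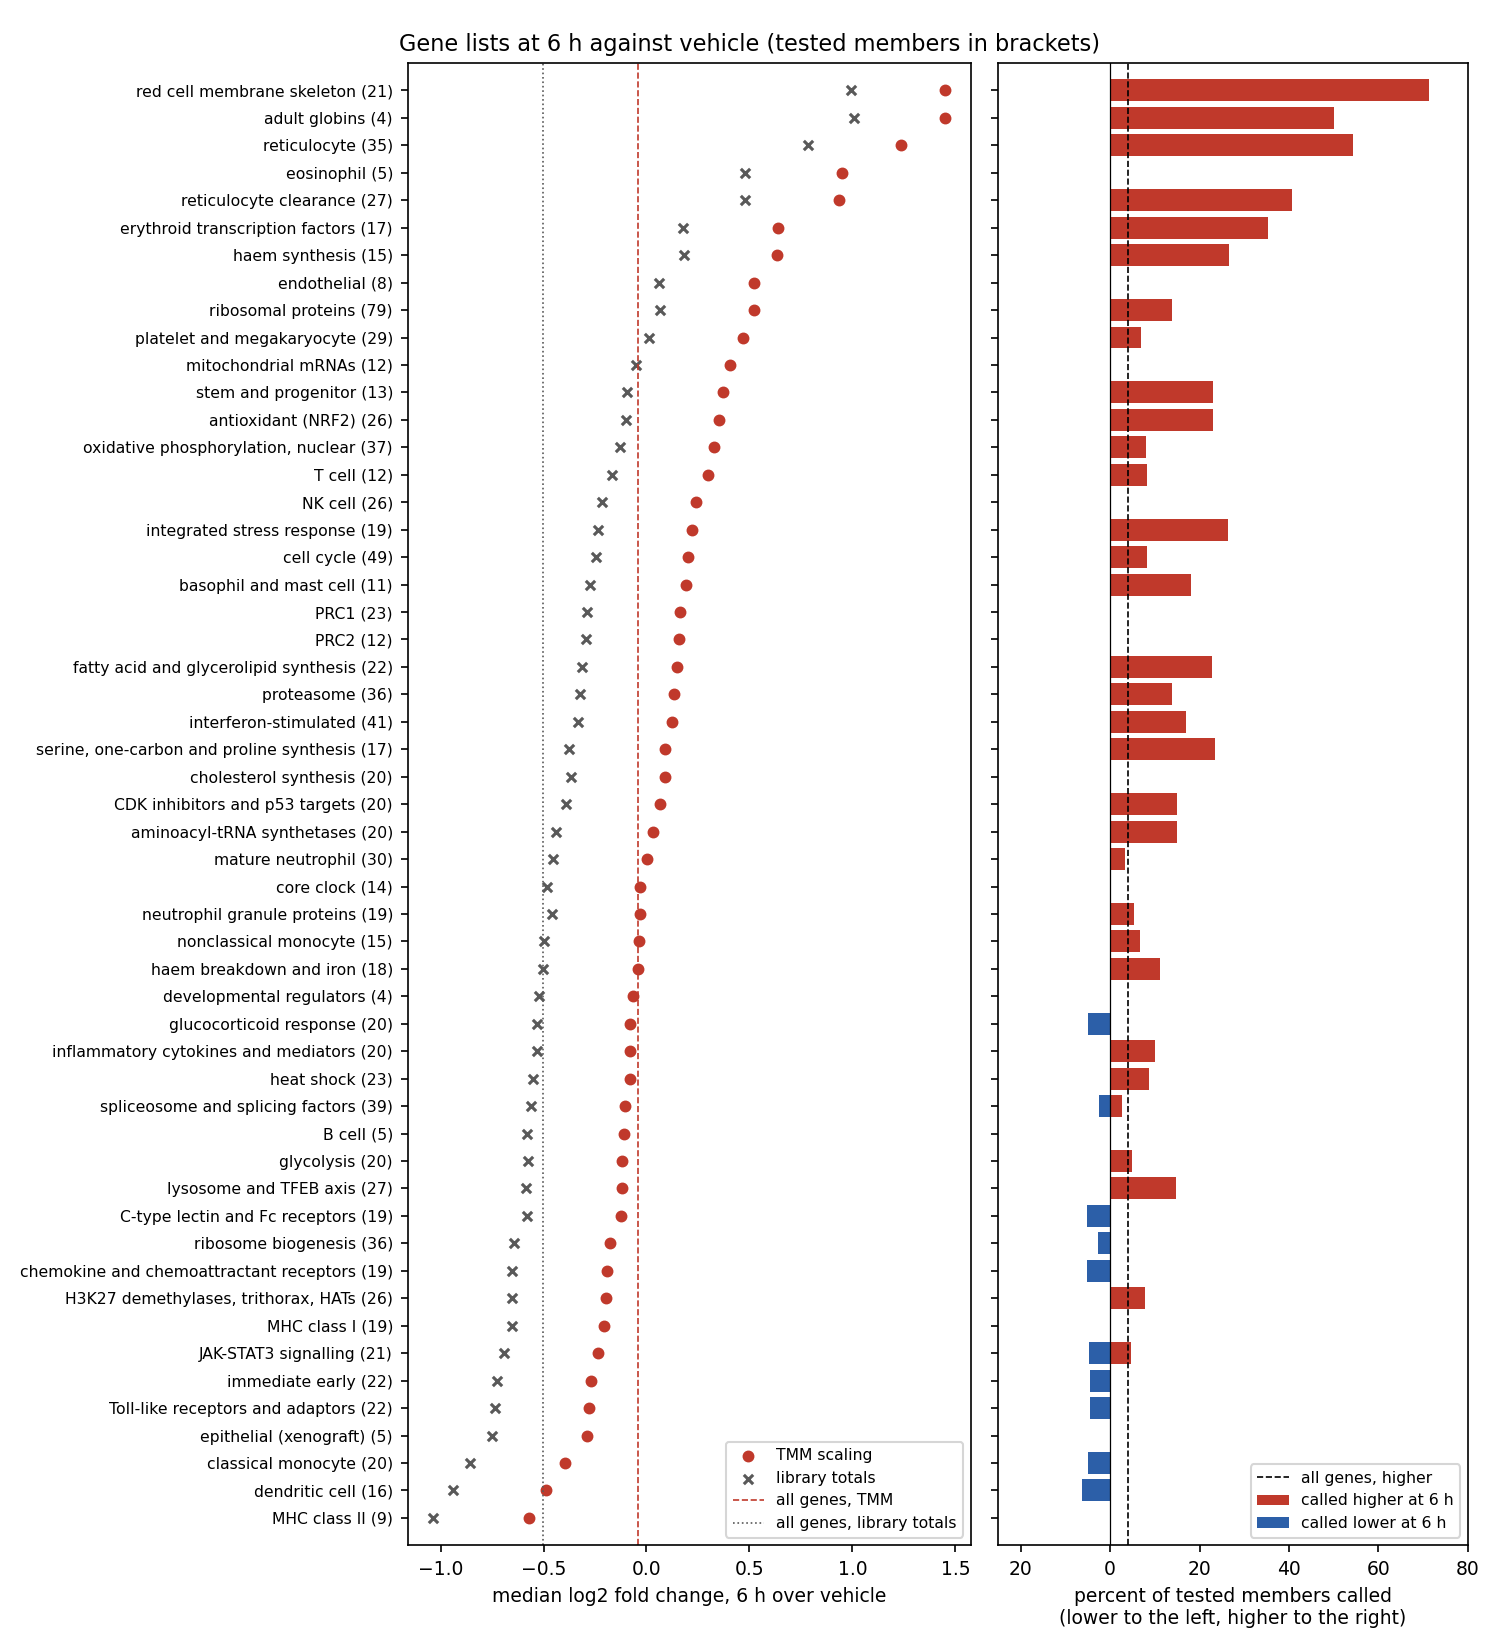
Median log2 fold change (6 h over vehicle) of the gene lists with TMM scaling (dots) and with library totals (crosses), beside the percentage of each list called in either direction. The red cell membrane skeleton, globin and reticulocyte lists lie furthest to the right, the haem breakdown and iron list lies at the median of all genes, and that median moves from -0.04 to -0.50 between the scalings.

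A part of the genes that remodel reticulocytes was higher. Of 27 tested genes for ubiquitin-dependent clearance, organelle removal and nuclear export, 11 were higher and 0 lower (median log2 fold change 0.93, and 11 higher with library totals). Trim10, a ubiquitin ligase of the red cell lineage, had 1239, 1169 and 1419.8 CPM at 6 h and 129, 195 and 230.4 CPM in vehicle (log2 fold change 2.79, SE 0.39, adjusted p = 0.0012). Atg4a, a protease that processes autophagosome proteins, had 301, 267 and 347 CPM at 6 h and 36.5, 49.8 and 55.2 CPM in vehicle (log2 fold change 2.69, SE 0.40, adjusted p = 0.0019), and the polyubiquitin gene Ubb had 4267, 4529 and 5141 CPM at 6 h and 966, 1255 and 1201 CPM in vehicle (log2 fold change 2.03, SE 0.31, adjusted p = 0.002). Xpo7, an exportin needed for nuclear condensation, had 2477, 2383 and 2307 CPM at 6 h and 483, 580.3 and 674 CPM in vehicle (log2 fold change 2.04, SE 0.31, adjusted p = 0.0021). Trim58 (1.79), which degrades dynein, and Ube2o (1.35), the ubiquitin enzyme that removes ribosomes and unassembled globin, passed as well. The mitophagy receptor Bnip3l, which clears mitochondria from reticulocytes, had a log2 fold change of 0.77 and did not pass (adjusted p = 0.31). Without 1 library the list had 7 to 18 members called, and with the reticulocyte covariate 0 higher and 1 lower.

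Among the 15 haem synthesis genes, 4 were higher and 0 lower, with a median of 0.63. They included Alad, aminolevulinate dehydratase (75.9, 64.8 and 93.8 CPM at 6 h and 22.4, 26.8 and 29.6 CPM in vehicle, log2 fold change 1.57, SE 0.24, adjusted p = 0.0018), Uros, uroporphyrinogen synthase (log2 fold change 1.75, SE 0.44, adjusted p = 0.036) and Urod, uroporphyrinogen decarboxylase (log2 fold change 1.58, SE 0.36, adjusted p = 0.023). The first enzyme in red cells, Alas2 (0.63, adjusted p = 0.31), and the last, Fech (0.42, adjusted p = 0.51), did not pass. Blvrb, a biliverdin and flavin reductase of red cells, had 393, 346 and 458 CPM at 6 h and 56.1, 74.1 and 87.8 CPM in vehicle (log2 fold change 2.46, SE 0.37, adjusted p = 0.0018). It was 1 of 2 higher genes, with Pcbp2, an iron chaperone, among 18 for haem breakdown and iron (median -0.04, with 1 higher and 4 lower with library totals). The Uros, Urod and Pcbp2 calls were lost in 8, 6 and 8 of the 12 fits without 1 library.

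Globin RNA was low in all libraries for whole blood, and the labels name only ribosomal RNA depletion. Of 4 adult globin genes 2 were higher. Hbb-bs, a beta chain, had 1648, 1863 and 1624 CPM at 6 h and 344, 731 and 712 CPM in vehicle (log2 fold change 1.52, SE 0.33, adjusted p = 0.017), and Hbb-bt had 22, 34.03 and 30.2 CPM at 6 h and 7.21, 10.5 and 15.9 CPM in vehicle (log2 fold change 1.38, SE 0.27, adjusted p = 0.011). Hba-a2, an alpha chain, varied widely within vehicle, with 1647, 2055 and 1508 CPM at 6 h and 234, 11.9 and 520.3 CPM in vehicle, and did not pass (log2 fold change 2.77, SE 0.76, adjusted p = 0.0519). It is nearly identical to Hba-a1 (0.88, adjusted p = 0.13), so the split of reads between these genes is uncertain, as it is for the beta pair.

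The transcription factors of the red cell lineage gave 6 higher and 0 lower of 17, and 2 higher and 1 lower with library totals. Gata1 had 194, 172 and 176 CPM at 6 h, against 46.8, 57.8 and 59.04 CPM in vehicle (log2 fold change 1.72, SE 0.20, adjusted p = 0.00044), and kept its call without each library. E2f2, which drives the last divisions of red cell precursors, had 590.4, 584 and 670.0 CPM at 6 h and 186, 200.03 and 216 CPM in vehicle (log2 fold change 1.62, SE 0.34, adjusted p = 0.014). The partners Tal1 (0.72) and Lmo2 (1.03), with Nfe2 (0.91) and Gfi1b (0.83), passed at smaller sizes. Klf1, the factor for beta globin and membrane genes, did not (0.55, adjusted p = 0.55). Calls in this list numbered 1 to 8 without 1 library.

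Over the whole list of 35 reticulocyte markers, which shares members with the groups above, 19 were higher and 0 lower, with a median of 1.24 (18 higher with library totals). Their summed level was 129147 to 146435 CPM at 6 h and 70732 to 78857 CPM in vehicle. Leaving out vehicle replicate 1 or 2 brought the count to 12 or 10, and leaving out 24 h replicate 3 to 28.

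**Figure D5:**
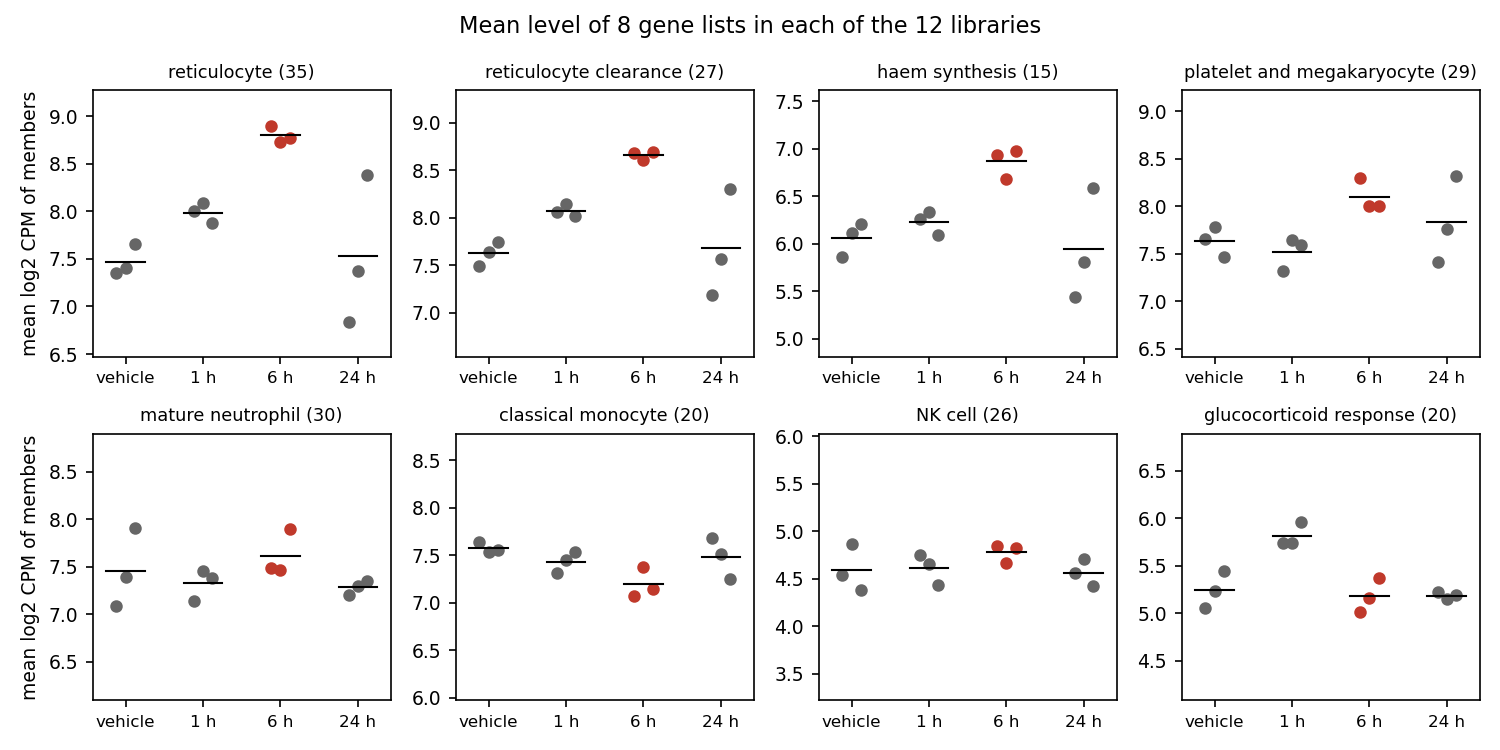
Mean log2 CPM of 8 gene lists in each of the 12 libraries, ordered vehicle, 1 h, 6 h and 24 h, with lines at the group means. The reticulocyte list is highest at 6 h (8.73 to 8.90) and spreads most at 24 h (6.84 to 8.38), and the glucocorticoid list is highest at 1 h (5.74 to 5.96).

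Fewer white cell markers passed the test. Of 30 mature neutrophil genes 1 was higher, Mmp8, the collagenase of neutrophil granules (954, 629.9 and 1148 CPM at 6 h and 189, 281 and 578 CPM in vehicle, log2 fold change 1.38, SE 0.37, adjusted p = 0.0456). The summed level of the list was 11126 to 16473 CPM at 6 h and 8614 to 14584 CPM in vehicle, so the groups overlapped, and its median was 0.00. Csf3r, the receptor for the main neutrophil growth factor, did not pass (-0.52, adjusted p = 0.19). With library totals 0 neutrophil genes were higher and 6 were lower. The Mmp8 call was lost in 9 of the 12 fits without 1 library.

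Classical monocyte markers had a median log2 fold change of -0.40, with 0 of 20 higher and 1 lower, and 9 lower with library totals. Ccr2, the chemokine receptor that brings monocytes out of marrow, had 484, 528 and 565 CPM at 6 h and 839, 907 and 697 CPM in vehicle (log2 fold change -0.63, SE 0.17, adjusted p = 0.0479). The summed level of the list was 6317 to 7342 CPM at 6 h and 8311 to 10388 CPM in vehicle, with no overlap. The Ccr2 call did not hold with DESeq2 size factors, with no filter, with the replicate block, or in 8 of the 12 fits without 1 library. Among 16 dendritic cell genes Clec10a, a galactose-binding lectin, was lower: 0.299, 0.495 and 0.257 CPM at 6 h and 3.84, 2.04 and 6.11 CPM in vehicle (log2 fold change -3.44, SE 0.59, adjusted p = 0.0037). Cd36, a scavenger receptor listed for nonclassical monocytes and also present on red cell precursors and platelets, was higher at 629, 574 and 766 CPM, against 167, 178 and 169.7 CPM in vehicle (log2 fold change 1.93, SE 0.35, adjusted p = 0.0061).

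Of 26 NK cell genes 0 passed in the edgeR fit of all 12 libraries, with a median of 0.24. At an unadjusted p under 0.05, 3 were higher and 2 lower, beside 1551 and 1077 of all 13384 genes. DESeq2 and limma-voom each called 1 higher, and edgeR on only the 6 h and vehicle libraries called 1 each way. Of 12 tested T cell genes Lat, an adaptor of the T cell receptor that platelets and mast cells also use, was higher (26.1, 23.02 and 21.9 CPM at 6 h and 10.7, 9.89 and 9.29 CPM in vehicle, log2 fold change 1.25, SE 0.20, adjusted p = 0.0024). Platelet genes had 2 of 29 higher: Thbs1, thrombospondin, had 1071, 958 and 892 CPM at 6 h and 313, 355 and 409 CPM in vehicle (log2 fold change 1.44, SE 0.20, adjusted p = 0.0012), and Gfi1b passed as above. The count was 1 to 9 without 1 library, and 10 were higher at an unadjusted p under 0.05 and 6 in DESeq2, and Gfi1b lost its call with library totals and in 7 of the 12 fits without 1 library. On TMM-scaled sizes the platelet list summed to 11172 to 13814 CPM at 6 h and 7793 to 9691 CPM in vehicle, without overlap. This separation depends on the scaling. The median log2 fold change of the list was 0.47 with TMM and 0.0098 with library totals, beside -0.04 and -0.50 for all genes. Among 13 stem and progenitor genes Kit (1.93), Msi2 (1.42) and Gata2 (0.88) were higher, and Kit and Gata2 were also the 2 of 11 basophil and mast cell genes that passed. The stem and progenitor count was 0 to 4 without 1 library, where Gata2 lost its call in 9 of the 12 fits, Msi2 in 5 and Kit in 3, and Gata2 also lost it with library totals, limma-voom and the replicate block. Whether fewer or more cells of a type account for any of these values was not tested.

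Some genes of amino acid supply were higher at 6 h. Of 19 tested genes of the integrated stress response, the programme that ATF4 runs when amino acids are short, 5 were higher and 0 lower, and 4 were higher and 2 lower with library totals. Asns, asparagine synthetase (ENSMUSG00000029752, GRCm38 chromosome 6, 7675169 to 7693254), had 64.2, 59.9 and 80.1 CPM at 6 h, against 8.02, 9.46 and 14.8 CPM in vehicle (log2 fold change 2.67, SE 0.27, adjusted p = 0.00014). The lowest 6 h library stood well above the highest vehicle library. Atf5 (log2 fold change 1.88, SE 0.34, adjusted p = 0.0062), a transcription factor of the same programme, the amino acid carriers Slc7a5 (1.27) and Slc3a2 (0.97), which form 1 transporter, and the glycine carrier Slc6a9 (1.54) passed. The Slc6a9 call was lost in 5 of the 12 fits without 1 library, in which the list had 2 to 6 calls. Atf4 itself (0.38, adjusted p = 0.18), Ddit3 (-0.30), Trib3 (-1.15) and Sesn2 (-0.33) did not.

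The Asns promoter is shown because this gene carries the smallest p of the list. Capitals mark the element searched as TGATGNAA on both strands, the composite site for ATF4 and C/EBP factors known as CARE, whose first base is 23 before the start (position -23). The window is chr6:7693160-7693459, minus strand, from the same RefSeq table.
Asns: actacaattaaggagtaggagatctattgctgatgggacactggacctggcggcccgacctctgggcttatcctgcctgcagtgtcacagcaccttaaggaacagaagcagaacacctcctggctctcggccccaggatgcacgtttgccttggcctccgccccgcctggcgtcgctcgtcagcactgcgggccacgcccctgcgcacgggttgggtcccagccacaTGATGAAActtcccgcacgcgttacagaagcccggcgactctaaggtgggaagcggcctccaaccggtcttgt
The element was in a window of 2.87% of all genes with one, and of 1 of the 4 such called genes of this list.

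Synthesis of serine, glycine and proline gave 4 higher and 0 lower of 17. Glul, glutamine synthetase, had 249, 257 and 271 CPM at 6 h and 101, 71.9 and 92.6 CPM in vehicle (log2 fold change 1.55, SE 0.22, adjusted p = 0.0015), and Pycr1, the last enzyme of proline synthesis, had 10.3, 10.5 and 7.84 CPM at 6 h and 0.581, 0.645 and 2.16 CPM in vehicle (log2 fold change 3.09, SE 0.51, adjusted p = 0.0029). The mitochondrial folate enzymes Shmt2 (1.62) and Mthfd2 (1.19) also passed, and lost their calls in 6 and 5 of the 12 fits without 1 library. Of 20 aminoacyl-tRNA synthetases, which charge tRNAs, Nars (1.32), Cars (1.35) and Sars (0.81) were higher. The Cars call was lost in 5 of the 12 fits without 1 library, and that of Sars in 3 of them and with library totals. Among lipid enzymes 5 of 22 were higher, namely Scd1, Gpd1, Pcx, Acsl1 and Elovl6. Pcx, pyruvate carboxylase, had 39.7, 38.1 and 48.2 CPM at 6 h and 2.32, 4.62 and 6.11 CPM in vehicle (log2 fold change 3.27, SE 0.38, adjusted p = 0.00037), and Gpd1, which makes glycerol phosphate, had 7.02, 7.30 and 12.6 CPM at 6 h and 0.697, 0.752 and 0.382 CPM in vehicle (log2 fold change 3.83, SE 0.42, adjusted p = 0.00025). Fasn (0.27), Acaca (-0.30) and Acly (-0.34), the core of fatty acid synthesis, did not pass. Cholesterol synthesis had 0 of 20 called in limma-voom and in the edgeR fit of all 12 libraries. At an unadjusted p under 0.05, 2 were lower, beside 1077 of all 13384 genes. DESeq2 and edgeR on only the 6 h and vehicle libraries each called 1 lower.

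Antioxidant enzymes had 6 higher and 0 lower of 26, with a median of 0.35 (6 higher and 2 lower with library totals). Cat, catalase, had 1569, 1536 and 1344 CPM at 6 h, against 370.3, 453 and 413 CPM in vehicle (log2 fold change 1.85, SE 0.26, adjusted p = 0.0013). Gclm, the regulatory subunit for glutathione synthesis, had 1440.2, 1238 and 1397 CPM at 6 h and 349, 396 and 449 CPM in vehicle (log2 fold change 1.77, SE 0.31, adjusted p = 0.0049), and Nqo1, a quinone reductase, had 19.6, 23.9 and 28.7 CPM at 6 h and 2.32, 6.23 and 6.23 CPM in vehicle (log2 fold change 2.28, SE 0.45, adjusted p = 0.0095). The peroxiredoxins Prdx1 (1.11) and Prdx2 (1.34), with Gpx1, completed the 6. Cat, Gpx1 and Prdx2 are also among the abundant proteins of red cells. Hmox1 (-0.28), Gclc (0.25) and Txnrd1 (0.50), targets of the factor NRF2, did not pass. The element TGACNNNGC that NRF2 binds was in a window of 2 of the 6 called genes and of 16.9% of all genes with a window. It was not found in that of Cat. With the reticulocyte covariate 0 of these genes were called.

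Among genes of growth and protein turnover, 11 of 79 ribosomal protein genes were higher and 0 lower, with a median of 0.52, but with library totals 2 were higher, 1 was lower and the median was 0.06. Rpl7 had 582, 539 and 641 CPM at 6 h and 237, 276 and 261 CPM in vehicle (log2 fold change 1.19, SE 0.26, adjusted p = 0.017). The count ran from 0 to 35 without 1 library. Of 36 proteasome genes 5 were higher, led by Psmd2 (log2 fold change 1.17, SE 0.19, adjusted p = 0.003) and Psmd4 (1.25) of the regulatory particle and the activators Psme4 (1.17) and Psme3 (1.31). Psme3 was by far the most abundant of these, at 5065, 4909.5 and 4374 CPM at 6 h and 1993, 1755 and 2038 CPM in vehicle. Its call was lost in 5 of the 12 fits without 1 library, and that of Psmd2 with library totals. The proteasome count was 1 to 6 without 1 library, and with library totals 3 were higher and 1 lower. Of 49 cell cycle genes Ube2c (2.03), Nusap1 (2.20), Cdc25b (1.57) and E2f2 were higher. Nusap1, a spindle protein, had 715, 685 and 824 CPM at 6 h and 138, 164 and 183 CPM in vehicle. The stress gene Gadd45a (1.32) and the CDK inhibitor Cdkn2c (2.23) passed among 20 p53 targets and CDK inhibitors, together with Phlda3 (1.28), which lost its call with library totals and in 7 of the 12 fits without 1 library. In the lysosome list, Sqstm1, an autophagy receptor, had 406, 433 and 428 CPM at 6 h and 114, 115 and 146 CPM in vehicle (log2 fold change 1.75, SE 0.26, adjusted p = 0.0015), and 4 of 27 were higher.

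A part of the interferon-stimulated genes was higher: 7 of 41, with 0 lower and a list median of 0.12. With library totals 6 were higher and 5 lower. Oas3, which makes the oligoadenylates that activate RNase L, had 798, 768 and 843 CPM at 6 h, against 320.0, 269 and 415 CPM in vehicle (log2 fold change 1.26, SE 0.18, adjusted p = 0.0014). Isg15, a ubiquitin-like modifier, had 217, 213 and 265 CPM at 6 h and 68.7, 65.99 and 81.7 CPM in vehicle (log2 fold change 1.68, SE 0.26, adjusted p = 0.002), and Usp18, which removes it, had 91.98, 70.5 and 93.5 CPM at 6 h and 29.5, 23.5 and 40.5 CPM in vehicle (log2 fold change 1.45, SE 0.23, adjusted p = 0.0022). The RNA-binding Ifit1 (1.29), Igtp (1.06), Xaf1 (0.90) and Rsad2 (1.21) passed as well. Other targets of the same pathway did not, among them Mx1 (-0.64), Ifit3 (0.06) and Oas2 (-0.31).

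The window of Oas3, chr5:120777610-120777909 on the minus strand, is shown for the interferon element searched as GAAANNGAA on both strands. It has 2 overlapping matches, in capitals, whose first bases are 75 and 69 bases before the start (positions -75 and -69).
Oas3: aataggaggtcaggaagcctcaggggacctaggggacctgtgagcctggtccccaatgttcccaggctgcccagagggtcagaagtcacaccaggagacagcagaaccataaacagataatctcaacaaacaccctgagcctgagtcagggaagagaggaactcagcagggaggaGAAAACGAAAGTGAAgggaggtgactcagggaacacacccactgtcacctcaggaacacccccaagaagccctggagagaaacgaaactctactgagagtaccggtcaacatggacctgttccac
The element was in a window of 5 of the 6 called interferon-stimulated genes that had one, and of 9.23% of all genes with a window. The list was made of known interferon targets. With the reticulocyte covariate 0 members were called, and without 1 library 4 to 8 were.

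Of the 105 lower genes 8 were in any of the gene lists, so those with the smallest p are given one by one. Klf11 (ENSMUSG00000020653, GRCm38 chromosome 12, 24651274 to 24662789), a repressor induced by TGF-beta, had 12.8, 13.4 and 13.4 CPM at 6 h and 34.6, 25.3 and 46.8 CPM in vehicle (log2 fold change -1.43, SE 0.22, adjusted p = 0.0021). Its relative Klf10 had 25.98, 26.7 and 27.5 CPM at 6 h and 70.5, 38.6 and 67.2 CPM in vehicle (log2 fold change -1.13, SE 0.21, adjusted p = 0.0058). Atf3, a stress-induced repressor, had 5.23, 5.07 and 5.14 CPM at 6 h and 11.3, 12.3 and 15.5 CPM in vehicle (log2 fold change -1.34, SE 0.23, adjusted p = 0.0036). In these 3 genes the 6 h libraries lay close together and the vehicle libraries spread more widely above them. Il6st, the gp130 receptor subunit shared by the cytokines of the IL-6 family, had 14.5, 18.3 and 11.8 CPM at 6 h and 61.6, 44.5 and 48.5 CPM in vehicle (log2 fold change -1.79, SE 0.32, adjusted p = 0.0048). Hgsnat, a lysosomal enzyme of heparan sulfate breakdown, had 24.8, 23.3 and 28.02 CPM at 6 h and 49.4, 46.5 and 52.9 CPM in vehicle (log2 fold change -0.97, SE 0.17, adjusted p = 0.0044). Plin2, which coats lipid droplets, had 84.4, 91.95 and 115 CPM at 6 h and 174, 141 and 258 CPM in vehicle (log2 fold change -0.98, SE 0.20, adjusted p = 0.014).

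Also among the 12 lower genes with the smallest p were Sntb2, a syntrophin that links membrane proteins to the cytoskeleton (129, 147 and 124 CPM at 6 h and 219, 228 and 302 CPM in vehicle, log2 fold change -0.90, SE 0.17, adjusted p = 0.0075) and Arhgef37 (log2 fold change -1.25, SE 0.24, adjusted p = 0.0095). Napg (-0.93), a vesicle fusion adaptor, Epc1 (-0.91), a subunit of the NuA4 acetyltransferase complex, Slk (-0.82), a kinase of cell shape, and Eogt (-1.83), which adds sugar to extracellular domains, completed the 12. Among the most abundant lower genes were Steap4, a metalloreductase, at 436, 479 and 445 CPM at 6 h and 644, 711 and 957 CPM in vehicle (log2 fold change -0.77, SE 0.18, adjusted p = 0.024), and Cd300a, an inhibitory receptor of myeloid cells, at 105, 110.3 and 111 CPM at 6 h and 187, 193 and 168 CPM in vehicle (log2 fold change -0.75, SE 0.17, adjusted p = 0.019). Zfp36l2, which destabilises mRNAs, had 390.2, 387 and 413 CPM at 6 h and 534, 609 and 612 CPM in vehicle (log2 fold change -0.56, SE 0.15, adjusted p = 0.0494) and lost its call in 10 of 12 fits without 1 library. None of the 105 lower genes was called with the reticulocyte covariate, and 12 of them were called in each of the fits without 1 library.

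In the signalling lists that held lower genes, most members did not pass. Of 22 immediate early genes 1 was lower, Atf3, and 9 with library totals, and Klf6 (-0.55, adjusted p = 0.072) and Junb (-0.61, adjusted p = 0.11) did not pass. Of 22 Toll-like receptors and adaptors the kinase Irak4 was lower (21.8, 22.2 and 21.7 CPM at 6 h and 37.3, 41.4 and 39.7 CPM in vehicle, log2 fold change -0.85, SE 0.21, adjusted p = 0.034). In the JAK-STAT3 list of 21, Il6st was lower and the kinase Pim1 higher (log2 fold change 0.66, SE 0.17, adjusted p = 0.044). The 9 tested MHC class II genes had a median of -0.57 and 0 calls in limma-voom and in the edgeR fit of all 12 libraries. Of these genes 4 were lower at an unadjusted p under 0.05, 2 in DESeq2, and 2 in edgeR on only the 6 h and vehicle libraries. Ciita, their transactivator, had 4.93, 3.22 and 4.76 CPM at 6 h and 18.6, 10.1 and 7.51 CPM in vehicle (log2 fold change -1.49, SE 0.44, adjusted p = 0.068). Of the inflammatory mediators, Nos2, the inducible nitric oxide synthase, was higher at 7.76, 14.9 and 19.4 CPM, against 0, 0.215 and 3.56 CPM in vehicle (log2 fold change 3.52, SE 0.78, adjusted p = 0.019), and so was the acute phase gene Saa3 (log2 fold change 1.95, SE 0.52, adjusted p = 0.045), among 20 tested. The calls of Pim1 and Saa3 were lost with library totals, with the replicate block and in 9 and 8 of the 12 fits without 1 library, and those of Irak4 and Nos2 in 7 and 3 of these fits.

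Transcripts of the drug's own targets did not pass in the edgeR fit of all 12 libraries. Ezh2 had 438, 414 and 372 CPM at 6 h and 306, 264 and 270.4 CPM in vehicle, without overlap but with a log2 fold change of 0.54 (SE 0.36, adjusted p = 0.43), and with library totals its log2 fold change was 0.08. It was called higher in 1 of the 10 other processing settings and in 0 of the 12 fits without 1 library. Over these fits its log2 fold change ran from -1.18 to 0.61. Ezh1 had 58.98, 64.97 and 61.7 CPM at 6 h and 47, 51.2 and 61.97 CPM in vehicle (log2 fold change 0.21, SE 0.20, adjusted p = 0.61), and the core partners Eed (log2 fold change 0.10, SE 0.20, adjusted p = 0.84) and Suz12 (log2 fold change 0.08, SE 0.25, adjusted p = 0.89) had smaller differences. CPI-0209 acts on the enzyme, so these levels do not measure its inhibition. Of 12 PRC2 genes 0 were called in limma-voom and in the edgeR fit of all 12 libraries. Higher were 2 at an unadjusted p under 0.05, 1 in DESeq2 and 3 in edgeR on only the 6 h and vehicle libraries. Leaving out 1 library gave 0 to 2 calls. On TMM-scaled sizes the summed level of the list was 1059 to 1109 CPM at 6 h and 791 to 836 CPM in vehicle. That these ranges do not overlap depends on the scaling. The median log2 fold change of the list was 0.16, and -0.29 with library totals. Of 23 PRC1 genes 0 were called, with 2 higher and 2 lower unadjusted, beside 1551 and 1077 of all 13384 genes. DESeq2 and edgeR on only the 6 h and vehicle libraries each called 1 PRC1 gene each way. Of 62 developmental regulators that Polycomb holds silent in other cell types, 4 had enough counts to be tested and 0 were called. Unadjusted, in DESeq2, and in edgeR on only the 6 h and vehicle libraries, 1 was higher. Of 26 genes of H3K27 demethylation, trithorax and acetylation 2 were higher, among them the acetyltransferase Kat6b (0.85), and 0 were higher and 3 lower with library totals. Without 1 library the list had 0 to 5 calls, and Kat6b lost its call in 10 of the 12 fits.

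The difference at 6 h was set directly against the other treated groups, where vehicle cancels. Against 1 h, 18 genes were higher at 6 h and 48 lower, 0.493% of genes in all (0.134% higher and 0.359% lower). The split between directions depended on the setting: DESeq2 called 405 higher and 337 lower, the fit with no filter 809 and 418, the fit of only the 6 h and 1 h libraries 1088 and 632, and at an unadjusted p under 0.05 there were 1608 higher and 1156 lower. Higher at 6 h than at 1 h were Mpst (log2 fold change 1.70, SE 0.27, adjusted p = 0.021), Pdzk1ip1 (log2 fold change 1.08, SE 0.17, adjusted p = 0.021), Ifi27 (1.24), Samd14 (1.00) and Sppl2b (1.02). Lower were Irf2bp2, a corepressor, with 32.1, 41.3 and 44.5 CPM at 6 h and 107, 109 and 136 CPM at 1 h (log2 fold change -1.58, SE 0.18, adjusted p = 0.0032), and Fkbp5, a cochaperone of the glucocorticoid receptor, with 18.1, 28.7 and 36.4 CPM at 6 h and 127, 115 and 128 CPM at 1 h (log2 fold change -2.15, SE 0.32, adjusted p = 0.021). Hgsnat (-1.42), Il6st (-2.17) and Lifr (-1.31), a receptor that pairs with gp130, were lower too. Of 20 glucocorticoid-response genes 6 were lower at 6 h than at 1 h (median -0.58), including Klf9, Per1, Tsc22d3 and Ddit4, whereas against vehicle 1 was lower, Irs2 (-0.80). Irf2bp2, Fkbp5 and Lifr were not called against vehicle. Of the 35 reticulocyte genes 0 were called against 1 h in edgeR and in limma-voom, with a median log2 difference of 0.84, 24 higher at an unadjusted p under 0.05 and 9 higher in DESeq2. In edgeR 28 were higher when only the 6 h and 1 h libraries were fitted, 23 with no filter, and 15 and 27 without 24 h replicate 1 or 3. With library totals 17 genes were higher and 657 lower. The count of 66 became 4, 19 and 10 when 6 h replicate 1, 2 or 3 was dropped, and 8, 11 and 4 when 1 h replicate 1, 2 or 3 was dropped. Dropping vehicle replicate 1 or 2 gave 37 and 31 calls, and dropping 24 h replicate 1, 2 or 3 gave 1006 (583 higher and 423 lower), 33 (6 and 27) and 1285 (912 and 373).

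Against 24 h, 167 genes were higher at 6 h and 68 lower, 1.76% of genes (1.25% higher and 0.508% lower). Ifi27 had 61.5, 55.2 and 81.4 CPM at 6 h and 16.4, 17.8 and 25.9 CPM at 24 h (log2 fold change 1.73, SE 0.21, adjusted p = 0.013), and Asns had 64.2, 59.9 and 80.1 CPM at 6 h and 13.97, 15.7 and 26.6 CPM at 24 h (log2 fold change 1.87, SE 0.26, adjusted p = 0.02). Rph3al (2.30), Cbr1 (1.85) and Calcoco1 (1.32) were also higher at 6 h. Klf11 (log2 fold change -1.46, SE 0.22, adjusted p = 0.02), Lifr (-1.29), Plin2 (-1.29), Klf10 (-1.25) and Arhgef37 (-1.49) were lower at 6 h. Of the reticulocyte genes 10 of 35 were higher at 6 h than at 24 h, of the membrane skeleton 9 of 21, of the clearance genes 6 of 27 and of the interferon-stimulated genes 5 of 41, with 0 lower in each. With library totals 259 genes were higher and 2692 lower. The comparison with 24 h depended on single libraries: with 6 h replicate 3, 24 h replicate 1 or 24 h replicate 2 dropped, 0 genes were called, although between 1044 and 1253 were higher and between 919 and 1356 lower at an unadjusted p under 0.05. Dropping 6 h replicate 1 or 2 left 2 and 13 calls, dropping a 1 h library 26 to 63, and dropping a vehicle library 54 to 136, whereas dropping 24 h replicate 3 gave 2243. When only the 6 h and 24 h libraries were fitted in edgeR, 0 genes were called, with 1038 higher and 925 lower at an unadjusted p under 0.05, where DESeq2 over all libraries called 1125 and limma-voom 729.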

How the data were processed

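RNA of whole blood (PAXgene kit, ribosomal RNA depletion, paired-end reads on an Illumina HiSeq, per the labels) was measured in 12 libraries. The authors deposited raw, whole-number counts for 55367 Ensembl genes of the mouse. The submitters' processing notes name RSEM, without a version, and hg38, although the identifiers are mouse. The aligner, annotation release, strand setting and any rounding were not given in the sources used here. Without a known strand setting, overlapping antisense genes cannot be told apart. Positions came from GENCODE M21 (GRCm38), which held 55111 identifiers, and promoter windows from RefSeq (GRCm38.p6).

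Counts were filtered with filterByExpr by group, scaled by TMM and fitted with edgeR 4.0.16 (quasi-likelihood, 4 group means, all 12 libraries; R 4.3.3). Contrasts were 6 h against vehicle, 1 h and 24 h, adjusted by Benjamini-Hochberg over 13384 genes, threshold 0.05. CPM are on TMM-scaled sizes, and mean log2 CPM of lists used a prior count of 2. All adjusted p-values are from edgeR unless another tool is named, and SE is that of the log2 fold change. An exact permutation test of 3 against 3 cannot go below a two-sided p of 0.1. Alternatives were library totals, DESeq2 size factors, no low-count filter, a 5 CPM minimum in 3 libraries, DESeq2 1.42.0, limma-voom 3.58.1, only the groups compared, a replicate block, no haemoglobin genes, a reticulocyte covariate and each library left out. The scripts were tested on simulated data. No 2 libraries of 1 group agreed within counting noise.

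The comparison, the 53 gene lists and the alternatives were chosen with earlier results of these data known. Named against vehicle were the 12 called genes with the smallest p each way and the 6 with the largest CPM difference each way. They had to have separated groups, at least 5 CPM in the higher group and a name that is not predicted. Named against 1 h and 24 h were the 5 with the smallest p each way, and always Ezh2, Ezh1, Eed and Suz12. From each list up to 4 genes with the smallest p were taken, and further members were named after their values were seen. Promoters shown were those of the genes with the smallest p in lists with 3 or more calls. Lists are described by counts and medians, with no test over the list. A few members of the lists are not reported here by name.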

Additional observations from a re-analysis of the deposited data

Results flagged for a closer look

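Genes that the naming rule chose by p or by CPM difference, leaving out those chosen as members of a list, are given here when their difference from vehicle at 6 h differed from that at 1 h or at 24 h by the direct edgeR contrast between the treated groups (adjusted p under 0.05), in which vehicle cancels. Genes named for the smallest p against 1 h or 24 h had already passed that same contrast, so their listing here is no further support. Against 1 h, 66 genes passed. Among the genes so chosen, with log2 differences of 6 h minus 1 h, Mpst was 1.70, Rph3al 1.59, Asns 1.43, Cbr1 1.24, Ifi27 1.24, Pdzk1ip1 1.08, Sppl2b 1.02 and Samd14 0.996. The lower ones were Il6st at -2.17, Fkbp5 at -2.15, Irf2bp2 at -1.58, Hgsnat at -1.42, Klf11 at -1.36, Lifr at -1.31 and Plin2 at -0.9995.

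Against 24 h, 235 genes passed. Rph3al was 2.30, Slc4a5 2.15, Asns 1.87, Cbr1 1.85, Eif5 1.76, Ifi27 1.73, Slc4a1 1.59, Mpst 1.56 and Rragd 1.56, and the smaller differences were Calcoco1 at 1.32, Scd1 at 1.12, Runx1t1 at 1.07 and Sppl2b at 0.92. Arhgef37 was lower at -1.49, Klf11 at -1.46, Plin2 at -1.29, Lifr at -1.29 and Klf10 at -1.25. Both comparisons rest on few libraries: without 1 library the counts ran from 4 to 1285 against 1 h and from 0 to 2243 against 24 h. No test for single deviating libraries was run. On the first principal component 24 h replicate 3 lay at 28.88, and 24 h replicates 1 and 2 at -60.33 and -20.33.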

How the results depend on the processing

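Among the 230 named genes, 226 stayed called in the same direction or stayed not called with DESeq2 size factors. With limma-voom 223 did, and 219 with the replicate block. With library totals 21 lost and 38 gained a call. With the reticulocyte covariate 100 lost theirs. Another 7 lost their call and also turned direction: Adipor1 (-0.17), Bpgm (-0.13), Cars (-0.14), Slc6a9 (-0.022), Uqcrh (-0.28), Urod (-0.15) and Uros (-0.11). Turns of direction among genes called in neither fit were not counted. That covariate separates the 6 h and vehicle libraries, so the cause was not tested. The 648 calls against vehicle became 1832 with library totals, 1265 with no filter, 1160 with DESeq2, 1382 with only the groups compared and 32 with the covariate, and 239 to 1266 without 1 library. The 66 calls against 1 h became 674, 1227, 742, 1720 and 1 in the same order, and 4 to 1285 without 1 library. The 235 calls against 24 h became 2951, 1477, 1125, 0 and 1 in that order, with 445 for the filter of 5 CPM, 729 with limma-voom and 0 to 2243 without 1 library. DESeq2 size factors gave 652, 50 and 228 calls. Of the 648 genes, 364 were called under every setting but the covariate and the libraries left out, and 170 also without each library.

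With the replicate number as a block 624, 68 and 418 genes were called. Whether replicate numbers pair the samples is not known. The correlations of same-numbered 6 h and vehicle deviations were -0.0069, -0.0681 and 0.0859. Deviations from the mean of 3 libraries depend on each other, so these values cannot decide it. Depth and 3 libraries a group limit what could be called among low genes, of which 0.888% between 0 and 2 log2 CPM were higher.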

Other observations

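Gene families outside the lists, chosen after their values were seen and so given as a description, also held several higher genes, where 4.06% of all tested genes were higher. Of 33 ubiquitin-conjugating enzymes, which pass ubiquitin to ligases, 9 were higher at 6 h and 0 lower: Ube2b, Ube2c, Ube2f, Ube2h, Ube2j1, Ube2m, Ube2o, Ube2s and Ube2v1. Of 11 members of the GID/CTLH ubiquitin ligase, which is known to act in the maturation of red cells, Wdr26 (2.03), Ranbp10 (1.77) and Rmnd5a (1.29) were higher, as log2 fold changes. Glutathione S-transferases had 4 of 11 higher, namely Gstm5, Gstp1, Gstp3 and Gstt1, with a median log2 fold change of 0.69. Gstp1 and Gstp3 are close copies, and reads may be split between them. Of 53 translation initiation factors 6 were higher, among them Eif1, Eif5 and Eif2ak1, the haem-regulated kinase that restrains translation in red cell precursors. Of 14 Kruppel-like factors 0 were higher and 2 lower, Klf10 and Klf11.

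By gene class, 519 of 11296 protein-coding genes were higher and 76 lower. Of 762 unconfirmed single-exon transcript models (class TEC) 2 were higher and 14 lower, with a median log2 fold change of -0.41. Of the 543 higher genes 118 were in any of the 53 lists, and of the 105 lower genes 8 were.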
